A study of Rattus norvegicus with 17 samples.

Results

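The genes described here are the peroxisome proliferator-activated receptors (PPARs), the coactivator Ppargc1a, known PPAR targets and the enzymes of fatty acid oxidation, followed across 5 dose groups of dipentyl phthalate (DPeP) in the rat fetal testis. Rows were matched to the list by gene symbol, and the rule sets no threshold on a measured value. The list was, however, chosen with earlier results of these data known, so its shares beside those of all genes are descriptive. The list holds 36 genes, of which 35 had a row among 30560 genes. No row carried the name Cd36, and this gene was not analysed here. Cyp4a1, with 0 to 4 counts per library, was removed by the filter on low counts, so 34 genes were tested. Testes came from wild type Sprague Dawley fetuses on gestational day 21, after the dam had been gavaged with DPeP, a phthalate ester plasticizer, in corn oil on gestational days 17 to 21. The 3 vehicle libraries came from dams that received 0 mg/kg/d, corn oil alone. The doses were 1, 11 and 100 mg/kg/d, with 3 libraries each, and 300 mg/kg/d, with 5. All groups, controls included, received the oil at 2.5 mL/kg. A library is polyA-selected RNA of 1 testis or of 2 testes of a litter. The labels do not tie libraries to dams, so the p-values measure the spread between these libraries.

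PPARs are nuclear receptors that bind fatty acids and their derivatives, pair with a retinoid X receptor and switch on genes at elements built from AGGTCA repeats. PPAR alpha drives the breakdown of fatty acids in liver, heart and other oxidative tissues, PPAR delta does so more widely, and PPAR gamma directs fat storage. Long acyl chains enter mitochondria as carnitine esters and are then shortened by repeated rounds of dehydrogenation, hydration, oxidation and thiolysis, while peroxisomes handle the longest chains. Monoesters of several phthalates are known PPAR ligands, and whether a phthalate evokes such a response in the fetal testis is the question that the dose groups address here.

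Depth was 14282274 to 20323488 gene counts per library. Levels are given as CPM, the read count of a gene relative to the library size after TMM scaling, and do not account for gene length. In the 100 mg/kg/d group, replicates 05 and 18 differed from all other libraries, with 9.05% and 7.76% of gene counts from the mitochondrial genome, against 4.35% to 6.16% in the other 15 libraries. Markers of the testis were present in every group. The summed level of 12 Leydig cell markers (the androgen-producing cells) was 6808 to 8284 CPM in vehicle, 5962 to 7606 at 1, 5058 to 6032 at 11, 3765 to 4727 at 100 and 2562 to 3420 at 300 mg/kg/d, and 10 of these 12 genes fell at 300 mg/kg/d. The part of such shifts in the results below was not tested, and in bulk testis fewer cells of a type and less RNA per cell cannot be told apart.

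Upstream sequences are shown for Acadvl, Etfdh and Fabp3, which fell at 300 mg/kg/d, and for Hadha, which shares its upstream region with Hadhb. They are the 250 bases before the annotated start from the RefSeq promoter table, build GRCr8, written 5′ to 3′ on the gene's strand. Acadvl is at chr10:55236706-55236955 and Etfdh at chr2:167060759-167061008, both on the minus strand, and Fabp3 is at chr5:147935875-147936124 and Hadha at chr6:31907551-31907800, both on the plus strand. Capitals mark AGGTCA, the unit of the PPAR element, in Acadvl and the GC box (GGGCGG, or CCGCCC on the other strand) in Etfdh and Hadha.
Acadvl: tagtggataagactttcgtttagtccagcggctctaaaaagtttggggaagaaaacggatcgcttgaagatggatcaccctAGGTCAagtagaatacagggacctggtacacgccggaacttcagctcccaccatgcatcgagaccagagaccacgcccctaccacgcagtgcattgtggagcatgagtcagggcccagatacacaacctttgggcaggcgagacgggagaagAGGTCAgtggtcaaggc
Etfdh: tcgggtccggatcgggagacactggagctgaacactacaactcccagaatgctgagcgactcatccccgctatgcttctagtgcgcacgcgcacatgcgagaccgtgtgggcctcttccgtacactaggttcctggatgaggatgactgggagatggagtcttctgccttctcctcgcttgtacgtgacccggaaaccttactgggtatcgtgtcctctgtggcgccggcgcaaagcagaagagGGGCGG
Fabp3: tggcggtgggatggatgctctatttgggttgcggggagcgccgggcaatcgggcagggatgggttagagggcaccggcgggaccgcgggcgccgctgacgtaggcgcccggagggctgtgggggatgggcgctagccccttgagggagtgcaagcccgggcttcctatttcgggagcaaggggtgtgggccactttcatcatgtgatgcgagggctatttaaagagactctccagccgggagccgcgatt
Hadha: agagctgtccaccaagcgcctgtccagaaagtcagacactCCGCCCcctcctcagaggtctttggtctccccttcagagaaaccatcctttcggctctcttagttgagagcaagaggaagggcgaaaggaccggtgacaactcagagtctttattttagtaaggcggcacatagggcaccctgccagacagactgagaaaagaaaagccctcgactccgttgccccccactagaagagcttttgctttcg
The table gave 1 window for 26 of the 36 genes, 2 for each of Pparg and Plin2, and none for 8, among them Vnn1. On both strands, the full direct repeat AGGTCANAGGTCA was in 0 of 26 windows and in 0.0508% of all 33469 windows of this length. A looser form, AGGNCANAGGNCA, was in 0 of 26 and in 0.368% of all. At such low shares, 0 of 26 does not show that these genes lack a PPAR element. AGGTCA alone was in 3 of 26, those of Acadvl, Eci1 and Ucp3, and in 14.1% of all. Acadvl carries it at positions -169 to -164 and -17 to -12 from the start. At the latter site it is followed by g and tggtca, a near repeat that neither pattern matches. The GC box was in 15 of 26 windows (57.7%) and in 30.5% of all, with a median GC content of 59.2% in the 26 and 51.2% in all. The CCAAT box, searched as CCAAT, was in 7 of 26 windows (26.9%) and in 34.0% of all. Such matches are letters in a window and not measured binding sites. The starts of Hadha and Hadhb lie 300 bases apart, head to head, and their windows share 200 bases. The GC box at -210 to -205 of Hadha is the same site as that at -96 to -91 of Hadhb, so it counts in both windows.

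In the vehicle group, the set spanned a wide range of levels. Per exon length (counts per kilobase scaled to 1 fixed total), the vehicle mean was highest for Ucp2, a mitochondrial carrier, at 465 ± 52.1 (SD, n = 3), and for Fabp3, a fatty acid binding protein of muscle and steroid-making tissues, at 421 ± 29.9. The libraries of these 2 genes overlap, at 413 to 517 and 389 to 447.7. Acaa2, the thiolase of the last step in mitochondria, followed at 343 ± 18.4, and Hadhb and Hadha, the subunits of the trifunctional protein, at 251 ± 11.2 and 235 ± 20.0. The receptors were lower: Ppard was at 21.0 ± 0.708, Ppara at 5.61 ± 1.30 and Pparg at 0.740 ± 0.152 on this scale. Ppargc1a was at 0.557 ± 0.471 and Cyp4a1 at 0.0430 ± 0.0373.

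None of the 4 tested genes of receptors and coactivator was called at any single dose in edgeR's quasi-likelihood test. Ppara, the liver-type receptor, had 5.95, 4.30 and 4.27 CPM in vehicle replicates 01, 08 and 15, and 3.51, 5.01, 6.03, 5.02 and 5.12 at 300 mg/kg/d. At 1 mg/kg/d it had 6.92, 7.39 and 5.92 CPM, at 11 mg/kg/d 7.27, 6.13 and 6.91, and at 100 mg/kg/d 3.94, 4.42 and 6.82. The 11 mg/kg/d libraries lay above all vehicle libraries and the 300 mg/kg/d libraries overlapped them. Its log2 fold change was 0.48 at 1 mg/kg/d (SE 0.226, adjusted p = 0.864), 0.48 at 11 mg/kg/d (SE 0.225, adjusted p = 0.992) and 0.03 at 300 mg/kg/d (SE 0.204, adjusted p = 0.973). Its sign at 300 mg/kg/d differed in 4 of 25 alternative fits. Ppard, the broadly expressed receptor, had 27.9, 30.5 and 29.9 CPM in vehicle, 30.1, 39.0 and 31.7 at 1, 28.7, 31.3 and 32.7 at 11, 18.6, 25.2 and 36.9 at 100, and 31.4, 30.6, 33.0, 33.2 and 33.6 at 300 mg/kg/d. Its 300 mg/kg/d libraries all lay just above vehicle, with a log2 change of 0.14 (SE 0.149, adjusted p = 0.773). Pparg, the adipocyte receptor, was near the lower limit of these counts, at 0.823, 0.614 and 0.620 CPM in vehicle, 0.686, 0.906 and 0.191 at 1, 0.0606, 0.387 and 0.262 at 11, 1.54, 0.617 and 0.918 at 100, and 0.242, 0.507, 0.585, 0.634 and 0.282 at 300 mg/kg/d. Its log2 fold change was -1.48 at 11 mg/kg/d (SE 0.616, adjusted p = 0.992) and -0.59 at 300 mg/kg/d (SE 0.502, adjusted p = 0.681). For Ppargc1a, the coactivator of mitochondrial oxidation, it was 0.61 at 300 mg/kg/d (SE 0.497, adjusted p = 0.667).

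**Figure D1:**
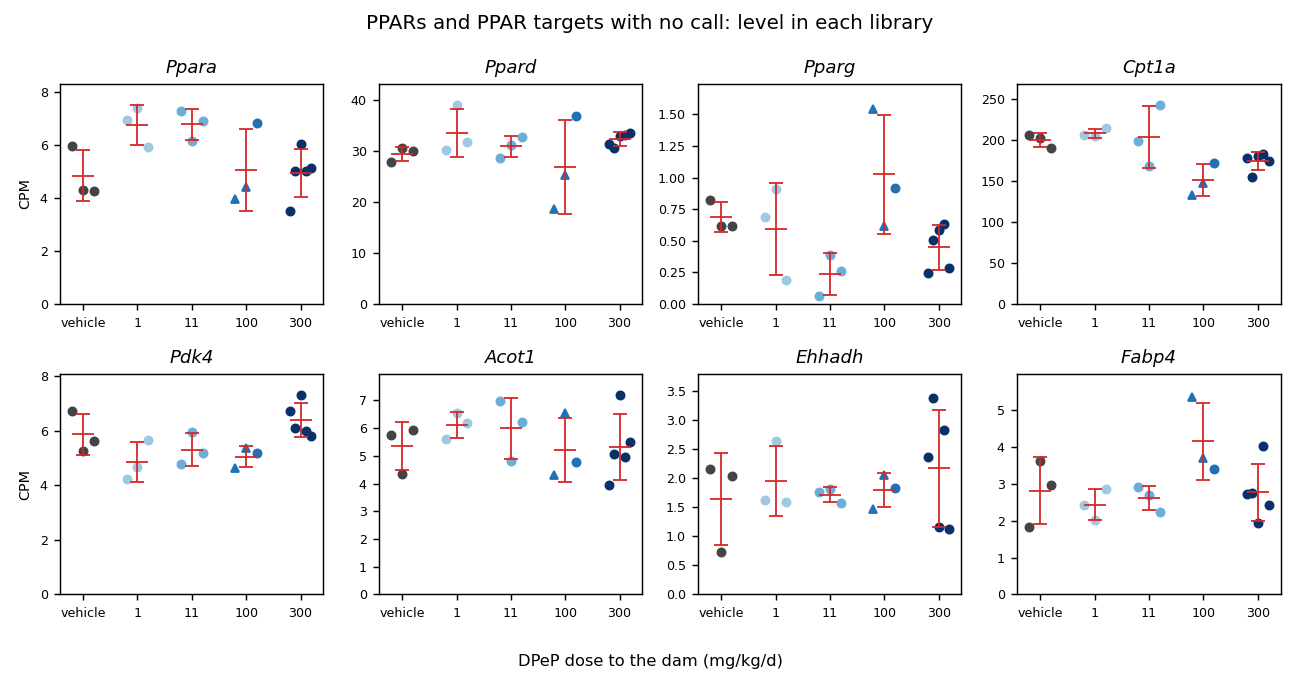
Level in CPM (vertical axis, from 0) of Ppara, Ppard, Pparg, Cpt1a, Pdk4, Acot1, Ehhadh and Fabp4 in each of 17 libraries, by DPeP dose (horizontal axis). Points are libraries, triangles are replicates 05 and 18 at 100 mg/kg/d, and red lines give the mean ± SD. None of the 8 genes was called by edgeR's quasi-likelihood test with all libraries in and the filter on low counts applied. With no such filter, Cpt1a was called in the joint test for any difference among the 5 groups. Cpt1a is lowest at 100 mg/kg/d, at 133, 148 and 173 CPM.

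Cpt1a, the carnitine palmitoyltransferase that gates fatty acid entry, had 206, 203 and 190.3 CPM in vehicle, 206, 205 and 215 at 1, 199.6, 169 and 244 at 11, 133, 148 and 173 at 100, and 178, 155, 181, 184 and 175 at 300 mg/kg/d. Both higher doses lay below every vehicle library, with log2 fold changes of -0.40 (SE 0.120, adjusted p = 0.0908) and -0.20 (SE 0.106, adjusted p = 0.462). Pdk4, which spares glucose by blocking pyruvate dehydrogenase, had 6.71, 5.25 and 5.64 CPM in vehicle, 4.24, 4.67 and 5.67 at 1, 4.78, 5.96 and 5.18 at 11, 4.62, 5.35 and 5.18 at 100, and 6.72, 6.08, 7.31, 6.00 and 5.80 at 300 mg/kg/d, so vehicle and 300 mg/kg/d overlapped. The 95% interval of its change at 300 mg/kg/d reached up to 1.37-fold of vehicle. Acot1, a thioesterase that frees fatty acids from coenzyme A, had 5.76, 4.36 and 5.95 CPM in vehicle, 5.61, 6.55 and 6.17 at 1, 6.96, 4.80 and 6.23 at 11, 4.31, 6.53 and 4.79 at 100, and 3.93, 5.07, 7.195, 4.96 and 5.52 at 300 mg/kg/d. These overlapped throughout, with an upper bound of 1.34-fold at 300 mg/kg/d. Acot1 and Acot2 are close relatives whose reads were not checked for sharing.

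Ehhadh, the bifunctional enzyme of peroxisomal oxidation, had 2.15, 0.726 and 2.04 CPM in vehicle, 1.62, 2.65 and 1.59 at 1, 1.76, 1.82 and 1.57 at 11, 1.48, 2.06 and 1.84 at 100, and 2.36, 3.38, 1.17, 2.83 and 1.13 at 300 mg/kg/d. At these low counts its interval at 300 mg/kg/d reached from 0.772-fold to 2.30-fold of vehicle. Fabp4, a binding protein of adipocytes and endothelium, had 1.84, 3.63 and 2.97 CPM in vehicle, 2.43, 2.02 and 2.86 at 1, 2.91, 2.71 and 2.25 at 11, 5.36, 3.70 and 3.41 at 100, and 2.72, 2.76, 1.93, 4.04 and 2.42 at 300 mg/kg/d, with an upper bound of 1.43-fold at 300 mg/kg/d. Cyp4a1, the omega-hydroxylase that is a classical liver marker of PPAR alpha ligands, had 0, 1 and 1 counts in vehicle, 0 in each library at 1 mg/kg/d, 4, 0 and 0 at 11, 1, 0 and 0 at 100, and 0, 4, 0, 0 and 0 at 300 mg/kg/d, too few for a fold. Pex11a, a peroxisome division factor, had a log2 fold change of 0.22 at 300 mg/kg/d (SE 0.126, adjusted p = 0.486) and Cpt1b, the muscle form of Cpt1a, of 0.47 (SE 0.172, adjusted p = 0.193). For Ucp3, a mitochondrial carrier of muscle, it was -0.42 (SE 0.454, adjusted p = 0.765). These intervals do not show that the levels were equal.

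At 300 mg/kg/d, 5 of the 34 genes fell and 0 rose against vehicle: Fabp3, Etfdh, Vnn1, Plin2 and Acadvl. A call means a p below 0.05 after Benjamini-Hochberg adjustment in edgeR's quasi-likelihood test, over 18005 genes, of which 1.41% fell and 0.994% rose. The 5 make up 14.7% of the tested genes of the set. At an unadjusted p under 0.05, 13 were lower and 1, Cpt1b, was higher, against 13.3% of all genes in either direction. DESeq2 called 9 lower and 0 higher, and 740 of all 18005 genes. The median log2 fold change was -0.26 over the 34 genes and 0.01 over all genes, and 25 of 34 lay below 0, against 48.0% of all genes. In 15 of 34 genes every 300 mg/kg/d library lay below every vehicle library, which was so for 6.48% of all genes, and in 1 (Ppard) every library lay above, against 5.82%.

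**Figure D2:**
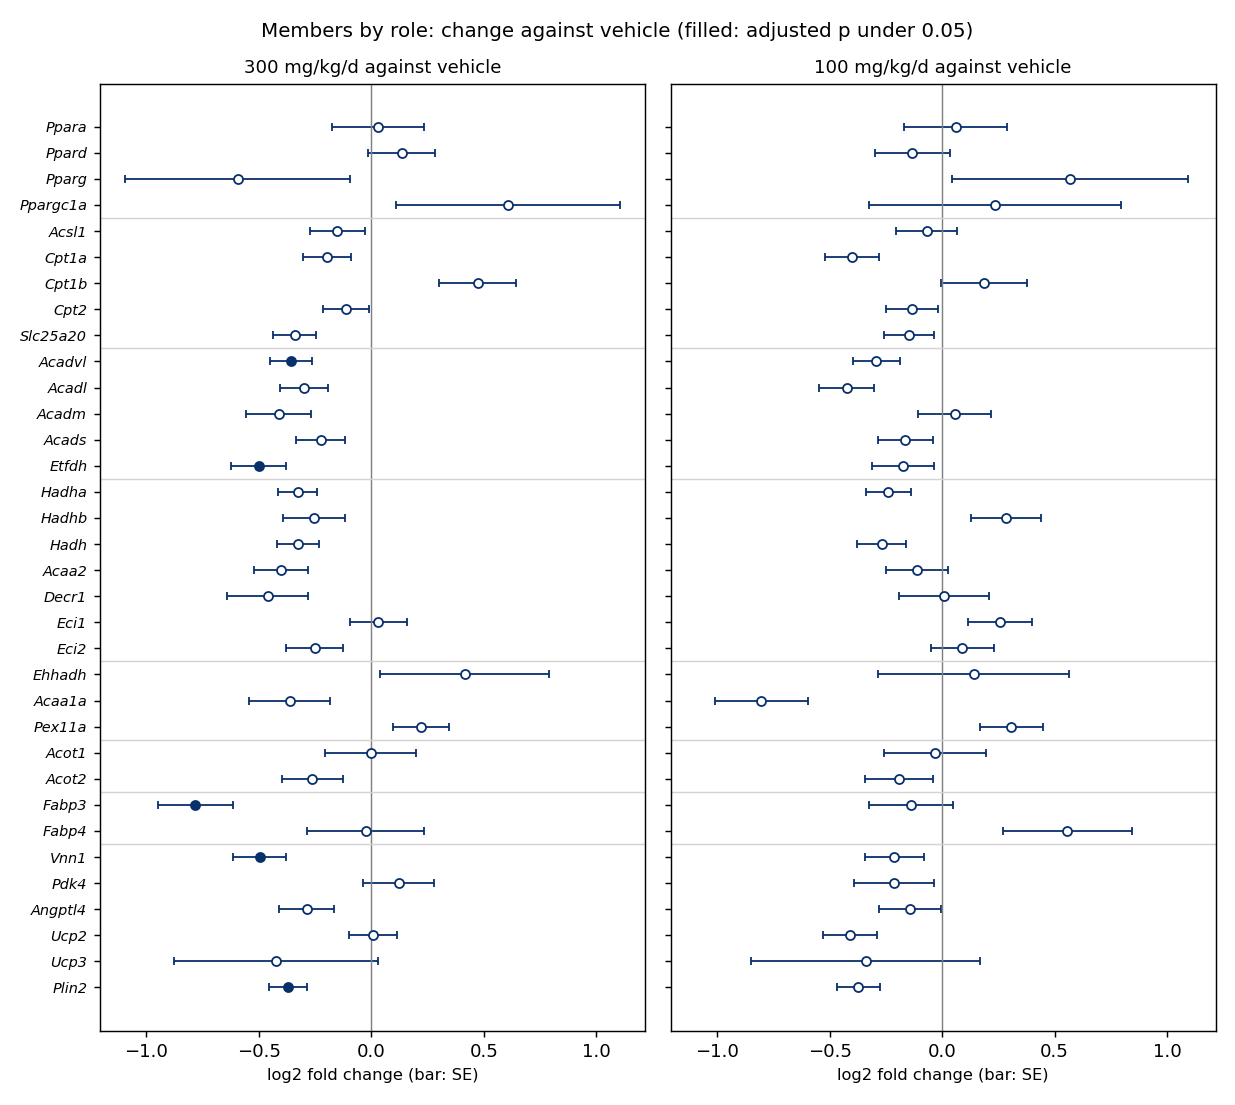
Log2 fold change against vehicle (horizontal axis; bars are the SE) of the 34 tested genes, ordered by role and separated by grey lines, at 300 mg/kg/d on the left and 100 mg/kg/d on the right. Filled points have an adjusted p under 0.05: the 5 genes Fabp3, Etfdh, Vnn1, Plin2 and Acadvl on the left, all below 0, and none on the right.

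Fabp3 had 238, 223 and 267 CPM in vehicle, 209, 188 and 218 at 1, 191, 203 and 145 at 11, 269, 258 and 135 at 100, and 137, 139, 161, 151 and 118 at 300 mg/kg/d. The 5 libraries at the highest dose lay below all vehicle libraries, and at 100 mg/kg/d replicates 05 and 18 were at the vehicle level while replicate 19 was low. Its fall at 300 mg/kg/d was 1.72-fold, with a log2 change of -0.78 (SE 0.165, adjusted p = 0.0113). Vnn1, the pantetheinase that returns coenzyme A precursors and a strong PPAR alpha target in liver, had 107, 86.4 and 97.1 CPM in vehicle, 105, 87.5 and 103 at 1, 78.7, 80.8 and 70.0 at 11, 95.2, 80.0 and 75.2 at 100, and 74.5, 66.4, 80.6, 66.4 and 54.8 at 300 mg/kg/d. Libraries at 11 and 300 mg/kg/d all lay below vehicle, and the fall at 300 mg/kg/d was 1.41-fold, with a log2 change of -0.50 (SE 0.117, adjusted p = 0.0243).

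Plin2, which coats lipid droplets and is among the most widely shared PPAR targets, had 81.9, 83.8 and 84.2 CPM in vehicle, 75.0, 85.5 and 91.0 at 1, 86.6, 80.1 and 87.2 at 11, 59.3, 62.7 and 71.0 at 100, and 65.2, 62.9, 68.0, 65.2 and 60.9 at 300 mg/kg/d. The 8 libraries of the higher doses all lay below the 9 others. Its log2 fold change was -0.37 at 300 mg/kg/d (SE 0.0848, adjusted p = 0.0206), a 1.29-fold fall, and -0.37 at 100 mg/kg/d (SE 0.0958, adjusted p = 0.0555). Angptl4, a secreted inhibitor of lipoprotein lipase and a target of all PPARs, had 49.6, 40.8 and 57.1 CPM in vehicle, 60.5, 63.7 and 66.0 at 1, 54.3, 58.7 and 48.2 at 11, 40.4, 45.2 and 48.2 at 100, and 44.9, 34.5, 47.9, 37.6 and 36.5 at 300 mg/kg/d. Its libraries at 1 mg/kg/d lay above all of vehicle, with a log2 change of 0.37 (SE 0.137, adjusted p = 0.864), and those at 300 mg/kg/d overlapped vehicle, at -0.29 (SE 0.122, adjusted p = 0.291).

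Acadvl, the dehydrogenase for very long acyl chains, had 65.7, 64.3 and 68.3 CPM in vehicle, 69.2, 60.5 and 77.2 at 1, 62.6, 59.9 and 59.9 at 11, 58.5, 52.8 and 50.6 at 100, and 54.5, 47.8, 56.4, 52.8 and 46.6 at 300 mg/kg/d. Each of the 3 higher doses lay wholly below vehicle, and the fall at 300 mg/kg/d was 1.28-fold, with a log2 change of -0.36 (SE 0.0932, adjusted p = 0.0462). Etfdh, which passes electrons from all acyl-CoA dehydrogenases to ubiquinone, had 109.8, 106 and 123 CPM in vehicle, 111, 97.0 and 121 at 1, 83.5, 85.1 and 92.7 at 11, 123, 91.8 and 86.3 at 100, and 90.1, 85.8, 86.1, 71.5 and 66.2 at 300 mg/kg/d. At 11 and 300 mg/kg/d all libraries lay below vehicle, and the fall at 300 mg/kg/d was 1.41-fold, with a log2 change of -0.50 (SE 0.121, adjusted p = 0.0291). Acadvl, Etfdh and Fabp3 each overlap a gene on the opposite strand, and the library kit does not mark strand. These partners, Dvl2, Ppid and Zcchc17, had log2 fold changes of 0.13 (SE 0.113, adjusted p = 0.678), -0.05 (SE 0.129, adjusted p = 0.925) and -0.04 (SE 0.123, adjusted p = 0.927) at 300 mg/kg/d.

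The calls at 300 mg/kg/d were sensitive to single vehicle libraries. No sign of the 5 genes changed, but their libraries at this dose did not overlap vehicle. Leaving out a library could therefore hardly change a sign. Without vehicle replicate 15 none of the 5 was called, without replicate 01 Fabp3 alone, and without replicate 08 Fabp3 and Vnn1. Without replicate 07 at 300 mg/kg/d Fabp3 and Etfdh remained called, and without replicate 14 or 20 Fabp3 and Plin2. With the sample code of the library titles as a term in the fit, Fabp3 alone remained called. Without 100 mg/kg/d replicates 05 and 18, whose spread enters the shared error, 12 genes fell, and without replicate 05 or replicate 19 alone 10 fell. Over all genes, 374 of 18284 fell without replicate 05 and 419 of 18316 without replicate 19, against 253 of 18005 with all libraries in. Of 25 alternatives, Fabp3 was called in 24 (adjusted p 0.000102 to 0.0858), Plin2 in 20 (0.000694 to 0.0977), Etfdh in 19 (0.00468 to 0.194), Vnn1 in 19 (0.00437 to 0.145) and Acadvl in 11 (0.00975 to 0.209).

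For Fabp3, Etfdh, Vnn1, Plin2 and Acadvl, every 300 mg/kg/d library lay below every vehicle library. The direction within the codes that hold both groups was therefore fixed in advance, and only the sizes are informative. For the 2 libraries at 300 mg/kg/d that share a code with vehicle replicate 15, the log2 of their mean over that library was -0.83 for Fabp3, -0.52 for Etfdh, -0.40 for Vnn1, -0.36 for Plin2 and -0.39 for Acadvl. For the 3 that carry the code of vehicle replicate 01, it was -0.81, -0.53, -0.71, -0.36 and -0.36 in that order. Vehicle replicate 08 has a code that no library of this dose carries.

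Markers of other cells that express such genes were compared beside these falls. Of 9 endothelial markers tested, 0 were called at 300 mg/kg/d, but all 9 lay below 0, with a median log2 fold change of -0.24. Their sum was 485 to 490 CPM in vehicle and 372 to 425 at 300 mg/kg/d. The sum of 10 striated muscle markers, cells rich in Fabp3, was 330 to 401 CPM in vehicle and 179 to 255 at 300 mg/kg/d, with 1 of 10 higher and 2 lower. At 1, 11 and 100 mg/kg/d this sum was 422 to 670, 427 to 506 and 168 to 377 CPM. It thus lay above vehicle at 1 and 11 mg/kg/d, where Fabp3 did not. The sum of 10 adipocyte markers was 25.9 to 26.8 CPM in vehicle and 20.2 to 27.1 at 300 mg/kg/d, with 0 of 5 tested called. The sum of 10 macrophage markers was 131 to 141 CPM in vehicle and 102 to 119 at 300 mg/kg/d, with 1 of 10 lower, Tyrobp, and 9 of 10 below 0. The sum of 12 Sertoli cell markers was 2821 to 3666 CPM in vehicle and 3391 to 5671 at 300 mg/kg/d, with 4 of 12 higher and 1 lower. The sum of 10 germ cell markers was 513 to 624 CPM in vehicle and 521 to 629 at 300 mg/kg/d, with 1 of 10 higher. No marker of these 6 lists was at 0 in all libraries. Their part in the falls was not tested.

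**Figure D3:**
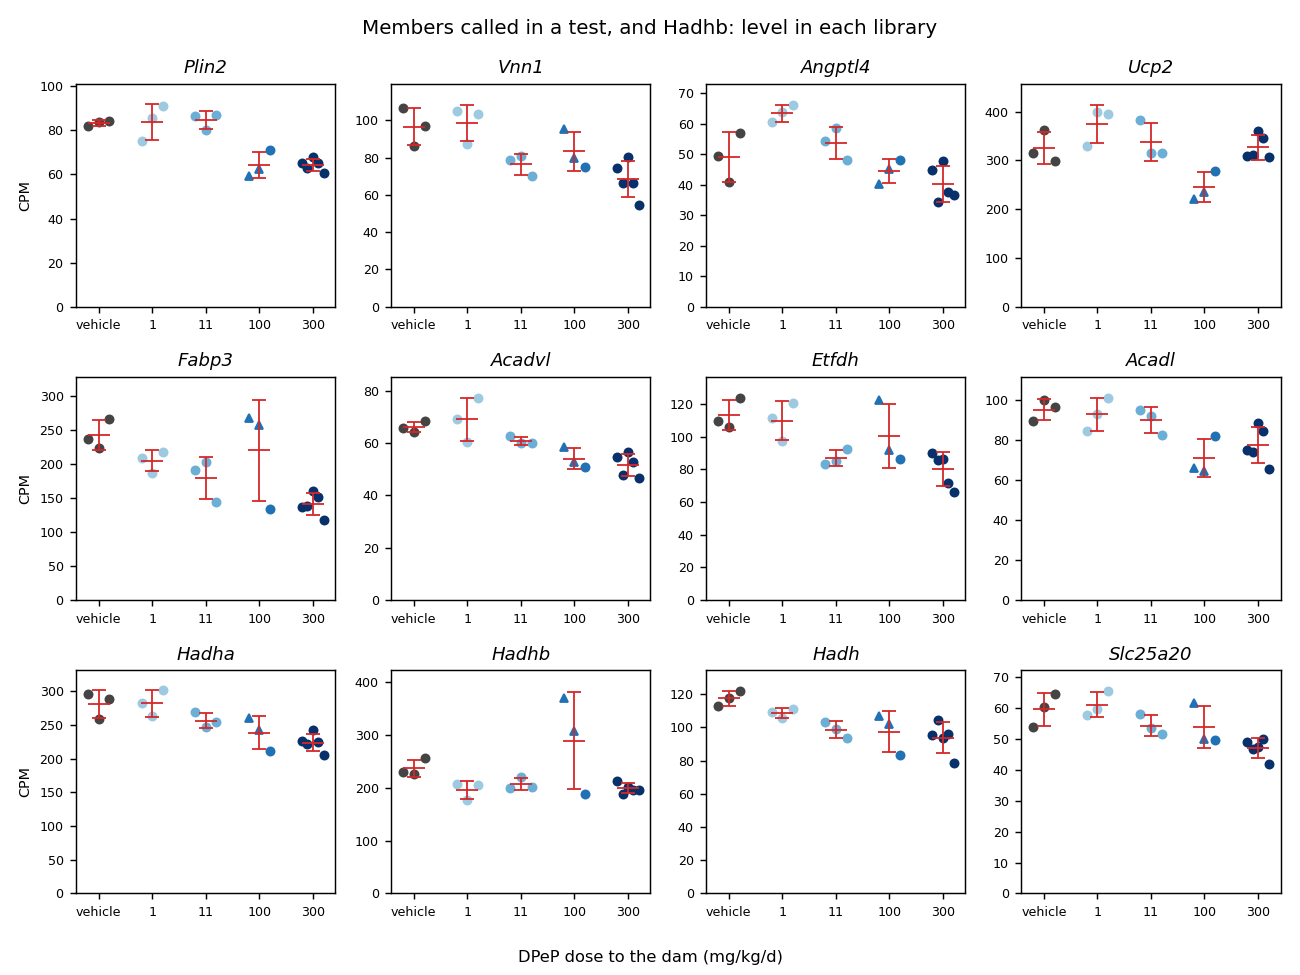
Level in CPM (vertical axis, from 0) of the 11 genes called in at least 1 test, and of Hadhb, in each library by DPeP dose (horizontal axis); triangles are replicates 05 and 18 at 100 mg/kg/d and red lines the mean ± SD. Plin2 at 100 and 300 mg/kg/d sits between 59.3 and 71.0 CPM, below the 75.0 to 91.0 CPM of the other 9 libraries, and Hadhb is highest in the 2 triangles.

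Across all 17 libraries, 9 of the 34 genes (26.5%) fell with dose and 0 rose, in a test of 1 slope on log2(dose + 1), against 2.98% of all genes that fell and 2.74% that rose. At an unadjusted p under 0.05, 15 had a negative slope and 2, Pex11a and Cpt1b, a positive one, against 19.1% of all genes in either direction. DESeq2 called 12 negative slopes, Cpt1a among them, and 0 positive ones, and 1489 of all 18005 genes. The slope, in log2 units per unit of log2(dose + 1), was -0.053 for Plin2 (SE 0.00981, adjusted p = 0.00193), -0.050 for Acadvl (SE 0.00936, adjusted p = 0.00220) and -0.056 for Vnn1 (SE 0.0130, adjusted p = 0.0108). For Angptl4 it was -0.059 (SE 0.0150, adjusted p = 0.0204) and for Etfdh -0.051 (SE 0.0139, adjusted p = 0.0326). Fabp3 had -0.065 (SE 0.0210, adjusted p = 0.0754).

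The other 4 genes with a falling slope are mitochondrial. Hadha, which carries the hydratase and the long-chain hydroxyacyl dehydrogenase of the trifunctional protein, had 296, 258 and 289 CPM in vehicle, 282, 263 and 302 at 1, 269, 247 and 255 at 11, 259.9, 243 and 212 at 100, and 226, 222, 242, 224 and 206 at 300 mg/kg/d. Its 300 mg/kg/d libraries all lay below vehicle, and its slope was -0.041 (SE 0.00872, adjusted p = 0.00543). Slc25a20, the carnitine-acylcarnitine carrier of the inner membrane, had 53.9, 60.3 and 64.6 CPM in vehicle, 57.8, 59.8 and 65.7 at 1, 58.0, 53.6 and 51.6 at 11, 61.8, 50.2 and 49.6 at 100, and 49.1, 46.7, 47.6, 50.1 and 41.8 at 300 mg/kg/d, with a slope of -0.041 (SE 0.0100, adjusted p = 0.0160). All of its 300 mg/kg/d libraries lay below vehicle, as did replicates 16 and 17 at 11 mg/kg/d and 18 and 19 at 100 mg/kg/d.

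Acadl, the dehydrogenase for long chains, had 89.2, 99.6 and 96.3 CPM in vehicle, 84.2, 92.8 and 100.9 at 1, 94.9, 91.9 and 82.4 at 11, 66.1, 64.5 and 82.0 at 100, and 74.9, 73.7, 88.2, 84.2 and 65.3 at 300 mg/kg/d, with a slope of -0.043 (SE 0.0114, adjusted p = 0.0252). Both higher doses lay below vehicle. Hadh, the hydroxyacyl dehydrogenase for shorter chains, had 113, 117 and 122 CPM in vehicle, 109.5, 106 and 111 at 1, 104, 98.8 and 93.8 at 11, 107, 102 and 83.5 at 100, and 95.7, 105, 93.4, 96.2 and 78.8 at 300 mg/kg/d, with a slope of -0.034 (SE 0.00965, adjusted p = 0.0370). All 4 dose groups lay below vehicle for Hadh. The slopes of Acadvl, Hadha, Vnn1 and Plin2 were called in all 24 alternatives, those of Slc25a20 in 23, Angptl4 in 22, Acadl in 18, Etfdh in 16 and Hadh in 13. Without replicate 10 at 1 mg/kg/d 5 slopes were called, without vehicle replicate 15 or replicate 07 or 20 at 300 mg/kg/d 6. A fit that held the sample code left 5. Without replicates 05 and 18 at 100 mg/kg/d, 15 fell and 1, Cpt1b, rose.

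By role, the dehydrogenation step had the lowest median of the mitochondrial steps at 300 mg/kg/d: all 5 of its genes lay below 0, with a median log2 fold change of -0.36, and 2 fell. For Acadm, the dehydrogenase for medium chains, the log2 fold change was -0.41 (SE 0.146, adjusted p = 0.173), and for Acads, for short chains, -0.23 (SE 0.109, adjusted p = 0.382). Of 7 genes of the later steps, 6 lay below 0 with a median of -0.33 and 0 were called. Among them, Decr1, which reduces double bonds of unsaturated chains, had -0.46 (SE 0.178, adjusted p = 0.230) and Acaa2 -0.40 (SE 0.121, adjusted p = 0.0929). Eci1 and Eci2, isomerases of unsaturated chains, had 0.03 (SE 0.126, adjusted p = 0.955) and -0.25 (SE 0.126, adjusted p = 0.406). Of 5 genes of activation and carnitine entry, 4 lay below 0 with a median of -0.15. Acsl1, a ligase that activates fatty acids, had -0.15 (SE 0.121, adjusted p = 0.661) and Cpt2, the inner carnitine transferase, -0.11 (SE 0.102, adjusted p = 0.705). Acaa1a, the peroxisomal thiolase, had -0.36 (SE 0.180, adjusted p = 0.404) and Acot2, a mitochondrial thioesterase, -0.26 (SE 0.135, adjusted p = 0.426). Outside the mitochondrial steps, the 2 tested genes of fatty acid uptake and binding had a median of -0.40, and 1 fell. The 6 other PPAR targets had a median of -0.33, and 2 fell.

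**Figure D4:**
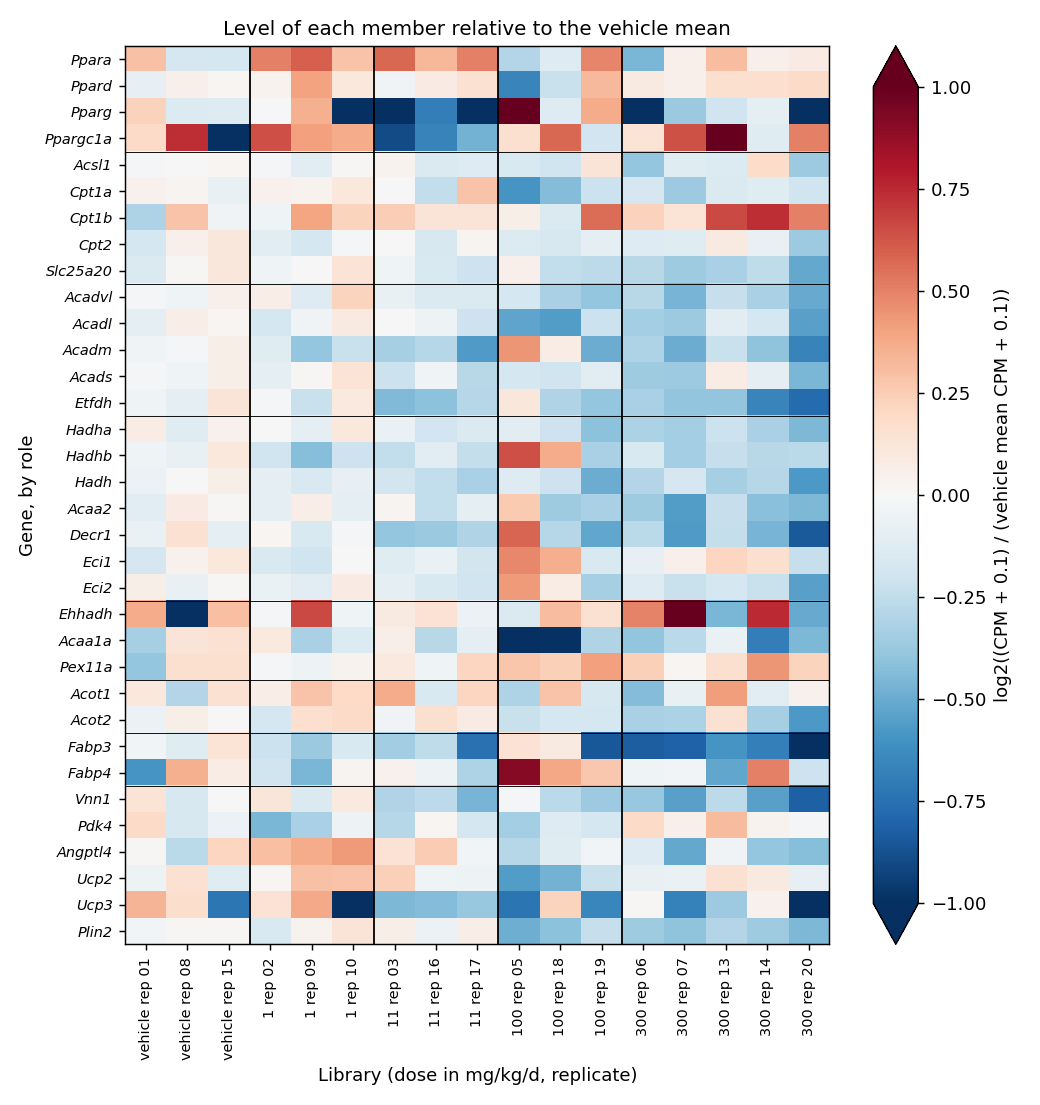
Level of the 34 tested genes (rows, by role) in each of the 17 libraries (columns, by dose and replicate) as log2 of the ratio to the vehicle mean, with 0.1 CPM added to both; blue is lower, red is higher, and colours end at 1 and -1. Rows from Slc25a20 to Decr1 are mostly blue at 300 mg/kg/d, and replicate 05 at 100 mg/kg/d is red for Hadhb and Decr1.

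The joint test for any difference among the 5 groups called 7 of 34 genes (20.6%), against 6.16% of all genes, and DESeq2 called 14, and 2783 of all 18005 genes. The adjusted p was 0.00549 for Plin2, 0.0165 for Angptl4, 0.0271 for Acadvl, 0.0272 for Vnn1, 0.0296 for Ucp2, 0.0313 for Fabp3 and 0.0424 for Etfdh. Ucp2 had 315, 362 and 299 CPM in vehicle, 329, 398 and 395 at 1, 384, 316 and 314 at 11, 221, 235 and 279 at 100, and 308, 311, 361, 345 and 307 at 300 mg/kg/d. Its level was low at 100 mg/kg/d and at the vehicle level at 300 mg/kg/d. The joint call of Ucp2 was lost without replicate 05 or 18 at 100 mg/kg/d, without both, and without replicate 09 or 10 at 1 mg/kg/d. Without the latter replicate Plin2 alone was called, while a fit that held the sample code called Plin2 and Angptl4. Without vehicle replicate 01 or replicate 02 at 1 mg/kg/d 4 were called, and without vehicle replicate 15, replicate 18 at 100 or replicate 07, 14 or 20 at 300 mg/kg/d 3. Without replicate 19 at 100 mg/kg/d 21 were called. Over all genes the joint calls moved too, from 1109 to between 517 and 5913 with 1 library left out.

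At 100 mg/kg/d edgeR's quasi-likelihood test called 0 of the 34 genes, against 1.03% of all genes lower and 0.494% higher. At an unadjusted p under 0.05, 8 were lower and 1, Pex11a, higher, against 19.2% of all genes in either direction. DESeq2 called 5 lower (Acaa1a, Acadl, Cpt1a, Plin2 and Ucp2) and 0 higher, and 852 of all 18005 genes. In 8 genes all libraries lay below vehicle (7.89% of all genes) and in 1, Pex11a, above (7.14%). The largest change by size was that of Acaa1a, at 14.5, 17.9 and 28.8 CPM against 28.2, 38.9 and 39.5 in vehicle, a log2 change of -0.80 (SE 0.206, adjusted p = 0.0549).

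The 3 libraries of this dose differed among themselves. Replicates 05 and 18 together lay above all 15 other libraries for Acadm, Hadhb and Eci1 (3 of 34; 14.6% of all genes) and below them for Ppard, Cpt1a, Acaa1a and Ucp2 (4 of 34; 12.6% of all genes). Hadhb had 231, 226 and 256 CPM in vehicle, 207, 177 and 206 at 1, 200.5, 221 and 202 at 11, 371, 307 and 189 at 100, and 213, 188, 202, 197 and 197 at 300 mg/kg/d. Its partner Hadha, which has the neighbouring start described above, was at 259.9 and 243 CPM in those 2 libraries, within the range of the others. Against the vehicle mean, the median log2 ratio over the 34 genes was -0.13 in replicate 05, -0.17 in replicate 18 and -0.21 in replicate 19, while that over all genes was 0.01 in each. The log2 ratio of Fabp3 was 0.15, 0.09 and -0.85, and that of Decr1 0.58, -0.28 and -0.52, in the same order. Without replicate 19, 8 of 34 genes were called: Hadhb and Eci1 as higher and Acaa1a, Acadl, Cpt1a, Plin2, Ppard and Ucp2 as lower. The same fit called 4250 of all 18316 genes that it tested, so the gain was not particular to the set. Without replicates 05 and 18, where the spread of the lone replicate 19 is borrowed from the other groups, Fabp3 alone was called, and without replicate 13 at 300 mg/kg/d Acaa1a and Plin2 were.

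At 11 and at 1 mg/kg/d edgeR called 0 of the 34 genes, as it called 0.0% of all genes at each dose. DESeq2 called 0 of the 34 at both doses and 26 genes in all at 11 mg/kg/d. At 11 mg/kg/d, 6 genes were lower at an unadjusted p under 0.05 (Vnn1, Hadh, Acadm, Etfdh, Pparg and Fabp3) and 1, Ppara, was higher, against 3.52% of all genes in either direction. Of the 34 genes 23 lay below 0, against 48.7% of all genes. In 10 genes all 3 libraries lay below vehicle, against 6.94% of all genes, and in 1, Ppara, above, against 5.28%. The log2 fold change was -0.43 for Fabp3 (SE 0.188), -0.38 for Etfdh (SE 0.137) and -0.34 for Vnn1 (SE 0.132), each with an adjusted p of 0.992. At 1 mg/kg/d, 2 genes were higher at an unadjusted p under 0.05, Ppara and Angptl4, and 0 were lower, against 4.95% of all genes in either direction. There, 4 genes had all libraries below vehicle (7.65% of all genes) and 1, Angptl4, above (6.47%).

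A list of 94 further genes of the pathway, also chosen with earlier results known, matched 88 genes, of which 82 were tested. At 300 mg/kg/d 4 fell and 1 rose (6.10%), at 100 mg/kg/d 3 fell and 0 rose, and on the slope 8 fell and 1 rose (11.0%). Over all genes, 1.41% fell and 0.994% rose at 300 mg/kg/d, 1.03% and 0.494% at 100 mg/kg/d, and 2.98% and 2.74% on the slope. Of 15 tested RXR partners and coregulators, 0 were called at any dose. Of 17 tested genes of peroxisomal oxidation and transport, 0 were called at 300 mg/kg/d and 1, Phyh, the hydroxylase that starts phytanic acid breakdown, fell on the slope (-0.057, SE 0.0116, adjusted p = 0.00469). Among 26 other fatty acid oxidation genes 3 fell at 300 mg/kg/d. Acad10, an acyl-CoA dehydrogenase relative, had 342, 346 and 398 CPM in vehicle, 361, 334 and 367 at 1, 314, 269.6 and 242 at 11, 98.4, 110.1 and 176 at 100, and 150.2, 119.97, 147, 162 and 104 at 300 mg/kg/d. The 2 higher doses lay far below the rest, and the fall at 300 mg/kg/d was 2.65-fold (log2 fold change -1.41, SE 0.157, adjusted p = 1.40e-05), larger than that of any of the 34 genes. Acsl4, a ligase for arachidonic acid, fell from 88.9 ± 8.13 to 50.3 ± 7.28 CPM, with a log2 change of -0.82 (SE 0.119, adjusted p = 0.000319). Nudt7, a peroxisomal coenzyme A hydrolase, fell from 12.4 ± 0.956 to 7.63 ± 0.169 CPM, with a log2 change of -0.70 (SE 0.154, adjusted p = 0.0162).

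**Figure D5:**
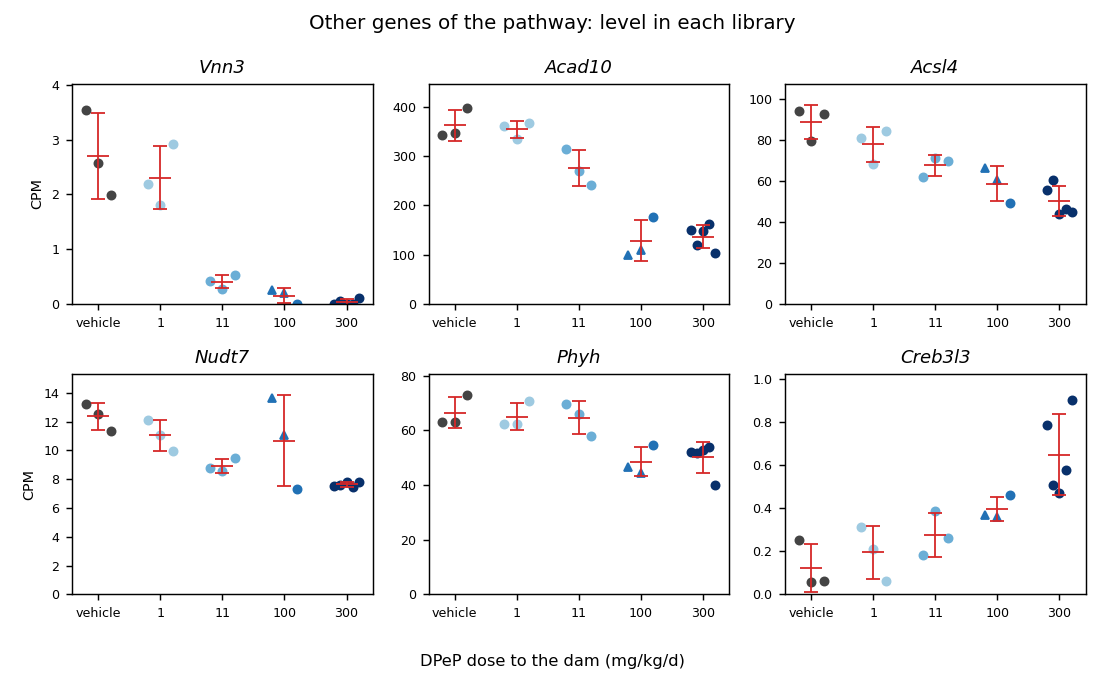
Level in CPM (vertical axis, from 0) of Vnn3, Acad10, Acsl4, Nudt7, Phyh and Creb3l3 in each library by DPeP dose (horizontal axis), with replicates 05 and 18 at 100 mg/kg/d as triangles and the mean ± SD in red. Acad10 drops from 342 to 398 CPM in vehicle to 104 to 162 CPM at 300 mg/kg/d, and Creb3l3 is higher at 300 mg/kg/d than in vehicle.

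The vanin Vnn3, a relative of Vnn1 (reads shared by both were not looked for), had 56, 46 and 32 counts in vehicle, 35, 26 and 46 at 1, 7, 5 and 10 at 11, 4, 4 and 0 at 100, and 0, 1, 0, 0 and 2 at 300 mg/kg/d. Counts at 11 mg/kg/d and above were below every vehicle library. Summed and scaled for depth, vehicle stood to 300 mg/kg/d in a ratio of 77.5 (95% counting interval 26.0 to 380.5), and to 100 mg/kg/d of 17.1 (8.44 to 40.4), with adjusted p = 3.00e-06 and 0.000851 in edgeR. Among 20 tested genes of fatty acid uptake, lipolysis and lipid droplets, Creb3l3, a liver factor that PPAR alpha works with, rose at 300 mg/kg/d. It had 4, 1 and 1 counts in vehicle, 5, 3 and 1 at 1, 3, 7 and 5 at 11, 6, 7 and 7 at 100, and 13, 9, 8, 10 and 16 at 300 mg/kg/d, a ratio of 5.38 to vehicle (95% counting interval 2.32 to 15.3; adjusted p = 0.0295). The sum of 9 liver markers was 99.0 to 128 CPM in vehicle and 134 to 291 at 300 mg/kg/d, without overlap. There, 6 of 7 tested lay above 0 with a median log2 fold change of 0.78 and 0 called. The sum was 112 to 183 CPM at 1, 97.3 to 136 at 11 and 112 to 117 at 100 mg/kg/d. In that order, 7, 2 and 1 of 7 lay above 0, with medians of 1.02, -0.06 and -0.64 and 0 called. No liver marker was at 0 in all libraries, and their part in the rise of Creb3l3 was not tested. Plin5, a droplet coat protein of oxidative tissues, fell on the slope (-0.24, SE 0.0484, adjusted p = 0.00429), from 2.09 ± 0.770 CPM in vehicle to 0.676 ± 0.431 at 300 mg/kg/d. Slc27a1, a fatty acid transporter, also fell on the slope (-0.049, SE 0.0126, adjusted p = 0.0233).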

How the data were processed

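RNA of fetal testes was sequenced in 17 libraries. The authors deposited whole-number counts of reads per gene, per the file headers; per the submitters' processing notes they used Trimmomatic 0.36, STAR 2.5.2b and featureCounts of Subread 1.5.2 on mRatBN7.2. The sources used here do not give the settings for strand or for reads with several matches. Tables of other units were not analysed here. The 92 spike-in rows were left out. Genes were kept by filterByExpr, scaled by TMM and fitted in 1 edgeR 4.0.16 quasi-likelihood model over all 17 libraries (R 4.3.3), with Benjamini-Hochberg adjustment over 18005 genes. The SE is the size of the log2 fold change divided by the root of F. Members and lists were chosen with earlier results of these data known. Of the further pathway genes, those that passed the test at a dose or on the slope, or had the highest level of an uncalled list, were to be named, and some of them are not reported here. Alternatives were RLE or upper-quartile scaling, DESeq2 1.42.0, other filters, the sample code as a term, the compared groups alone, and left-out libraries. The scripts were tested on simulated data. Intervals on summed counts cover counting error only.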

Additional observations from a re-analysis of the deposited data

Results flagged for a closer look

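Among the tested genes in the 5 libraries at 300 mg/kg/d, Eci2, an isomerase of unsaturated acyl chains, had 1 library apart from the others. Replicate 20 had 59.5 CPM, and the others had 74.1 to 79.4 CPM. The gap to the nearest library was 0.734 of the whole range, above Dixon's critical value of 0.71. Of 34 genes checked this was the only one, and chance gives about 1 such library in 20 groups.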

How the results depend on the processing

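No gene of the 34 that was called at 300 mg/kg/d or on the slope changed sign in an alternative. For the 5 called at 300 mg/kg/d, whose libraries did not overlap vehicle, leaving out a library could hardly change it. Among the uncalled, the sign differed in at least 1 alternative for 5 genes at 300 mg/kg/d (Ppara, Eci1, Acot1, Fabp4 and Ucp2), 13 at 100 mg/kg/d and 3 on the slope (Ppard, Pparg and Hadhb). Of the 34 genes, the 5 that fell at 300 mg/kg/d became 9 in DESeq2, 12 with the compared groups alone, 12 without replicates 05 and 18 at 100 mg/kg/d and 1 under the sample code term, and ranged from 0 to 10 with 1 library left out. At 100 mg/kg/d 0 became 5 in DESeq2, 1 with RLE scaling, 1 with no filter and 1 without replicates 05 and 18 (range 0 to 8). At 11 and 1 mg/kg/d it stayed 0 in each alternative run. The 9 slopes became 5 with the sample code and 16 without replicates 05 and 18 (5 to 13), and the 7 joint calls became 14, 2 and 11 with DESeq2, the sample code and without replicates 05 and 18 (1 to 21). Over all genes, the 432 calls at 300 mg/kg/d became 740 in DESeq2, 270 with the sample code, 835 with the compared groups alone and 869 without replicates 05 and 18 (212 to 755). The 274 at 100 mg/kg/d became 852 in DESeq2, 45 with the compared groups alone and 73 without replicates 05 and 18 (93 to 4250). The 0 at 11 mg/kg/d became 26 in DESeq2, 19 with no filter, 1 with the sample code, 10 with the compared groups alone and 19 without replicates 05 and 18 (0 to 19). The 0 at 1 mg/kg/d became 1 with no filter and 3 with the compared groups alone (0 to 1). The 1030 slopes became 586 with the sample code and 1711 without replicates 05 and 18 (746 to 1503), and the 1109 joint calls 2783 with DESeq2 and 581 with the sample code (517 to 5913). With upper-quartile scaling the slopes over all genes split into 594 higher and 484 lower, against 494 and 536. The cause was not tested. No paired analysis was possible because each replicate number occurs in 1 library only; the sample code, whose meaning is not given, entered as a term instead.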
